A study of Homo sapiens with 3 samples.

Results

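The replication-dependent histone genes were examined in a chromatin immunoprecipitation sequencing (ChIP-seq) study of VCP, an ATPase that pulls ubiquitin-tagged proteins out of complexes. Members were the protein-coding genes on chromosomes 1 to 22 of the RefSeq annotation (GRCh38.p14, the files' build hg38) named H1-1 to H1-5, or with a symbol beginning H2AC, H2BC, H3C or H4C and a number. This gave 69 of 18973 protein-coding genes: 5 for H1, 17 for H2A, 19 for H2B, 13 for H3 and 15 for H4. All libraries came from HCT116, a human colorectal cancer cell line, which per the series' title and design text overexpressed Flag-tagged VCP. No library of cells without the tag was analysed here. Chromatin was fixed with formaldehyde and cut with micrococcal nuclease, and it was precipitated with an antibody to the Flag tag or with an antibody to VCP, beside an input without antibody. Each was 1 library with no replicate, and the expression of the tagged protein was not measured in these files. The input's reads were not analysed here.

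Histones H2A, H2B, H3 and H4 form the core around which DNA winds in the nucleosome, and H1 binds the linker DNA between nucleosomes. Cells make most of them in S phase from many near-identical, short genes without introns, gathered in a large cluster on chromosome 6 and smaller ones on chromosome 1. Their messages end in a stem-loop in place of a poly(A) tail. Transcription and end processing take place at the histone locus body, a nuclear structure organised by NPAT.

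Start regions of 5 members, 1 for each histone type, are printed to show the promoter sequences of the group. The strongest Flag peak overlapped the window at H2AC6, H2BC5, H3C2 and H4C4, while both peaks at H1-4 lay past its window. The 5 are the members of each type whose Flag peak had the highest -log10 q among those with a start in the RefSeq promoter table (GRCh38.p14), which listed 63 of the 69 members. Each runs 5′ to 3′ from 250 bases before the start to 50 bases from it. Capitals mark matches on either strand to TATAAA (the TATA box), CCAAT (the CCAAT box), ATGCAAAT (the octamer known from H2A and H2B promoters), AAACACA (a box known from H1 promoters) and GGTCCG (the core of a site known from H4 promoters).
H1-4, chr6:26156079-26156378, + strand: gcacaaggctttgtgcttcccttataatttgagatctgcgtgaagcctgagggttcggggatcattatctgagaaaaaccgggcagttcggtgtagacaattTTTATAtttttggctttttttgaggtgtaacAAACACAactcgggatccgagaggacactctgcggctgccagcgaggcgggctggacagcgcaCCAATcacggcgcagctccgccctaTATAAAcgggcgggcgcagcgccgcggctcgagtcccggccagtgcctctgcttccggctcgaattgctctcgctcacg
H2AC6, chr6:26123922-26124221, + strand: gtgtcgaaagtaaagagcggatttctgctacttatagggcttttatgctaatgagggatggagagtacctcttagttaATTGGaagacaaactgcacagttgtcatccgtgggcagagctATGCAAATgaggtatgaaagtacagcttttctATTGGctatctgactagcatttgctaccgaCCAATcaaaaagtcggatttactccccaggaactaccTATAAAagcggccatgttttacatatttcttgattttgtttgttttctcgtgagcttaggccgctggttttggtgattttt
H2BC5, chr6:26157871-26158170, + strand: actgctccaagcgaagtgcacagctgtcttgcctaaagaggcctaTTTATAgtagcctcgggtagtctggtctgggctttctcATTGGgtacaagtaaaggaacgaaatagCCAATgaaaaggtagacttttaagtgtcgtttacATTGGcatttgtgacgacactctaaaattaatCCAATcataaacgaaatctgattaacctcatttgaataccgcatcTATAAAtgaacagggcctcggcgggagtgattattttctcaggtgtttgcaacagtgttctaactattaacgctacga
H3C2, chr6:26032050-26032349, - strand: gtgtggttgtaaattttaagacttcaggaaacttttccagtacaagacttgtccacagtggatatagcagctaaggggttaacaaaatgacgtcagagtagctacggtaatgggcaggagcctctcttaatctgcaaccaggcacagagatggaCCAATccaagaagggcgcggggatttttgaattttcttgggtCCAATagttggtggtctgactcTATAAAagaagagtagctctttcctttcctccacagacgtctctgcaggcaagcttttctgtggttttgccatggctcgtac
H4C4, chr6:26189063-26189362, - strand: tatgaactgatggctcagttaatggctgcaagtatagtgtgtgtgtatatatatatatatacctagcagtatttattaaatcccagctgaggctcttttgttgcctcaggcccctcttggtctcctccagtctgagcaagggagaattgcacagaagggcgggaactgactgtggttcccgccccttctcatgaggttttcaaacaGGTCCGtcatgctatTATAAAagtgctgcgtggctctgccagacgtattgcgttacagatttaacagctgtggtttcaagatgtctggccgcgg

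The other 6 members, H4C1, H4C3, H2AC12, H3C11, H3C12 and H2BC12L, are named only. The H1-4 window held AAACACA, beginning 117 bases before the start, and a TATA box beginning 29 bases before it. In the H2AC6 window the octamer began 130 bases before the start. The H2BC5 window held 4 CCAAT boxes and no octamer, and the H3C2 window held CCAAT boxes beginning 96 and 54 bases before the start. At H4C4 GGTCCG began 44 bases and the TATA box 29 bases before the start, and no CCAAT box was found.

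The Flag antibody marked many histone genes, and the VCP antibody hardly any. A gene was counted as marked when the summit of a peak lay within 1 kb of either of its ends. Flag peaks marked 29 of the 69 histone genes (42.0%, exact 95% binomial interval 30.2 to 54.5), against 12.2% of all 18973 protein-coding genes. VCP peaks marked 2 of the 69 (2.90%, 0.353 to 10.1), against 2.44% of all protein-coding genes, a share near that background. Such intervals reflect counting error alone, and neighbouring genes that share a peak are not independent. With 1 library per antibody, no p-value is given for these shares.

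The windows of histone genes are smaller than those of most genes, because the genes are short. Their median length was 494 bp, so the windows at both ends merged into a median of 2494 bp per gene, against 4002 bp over all protein-coding genes. Per merged window length, histone genes held 18.4 Flag peaks per 100 kb (exact Poisson 95% interval 12.1 to 26.8), against 2.92 at all protein-coding genes (2.79 to 3.05). For VCP peaks the values were 1.36 per 100 kb (0.165 to 4.93) at histone genes and 0.572 (0.517 to 0.631) at all protein-coding genes. The VCP intervals overlapped. These densities do not compare like with like. The merged window of a short gene lies near its start throughout, while that of a long gene also covers a distant end. The part of this in the Flag contrast was not tested. By gene starts alone, Flag peaks marked 26 of the 63 members with a listed start, against 13% of all protein-coding genes with one.

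**Figure D1:**
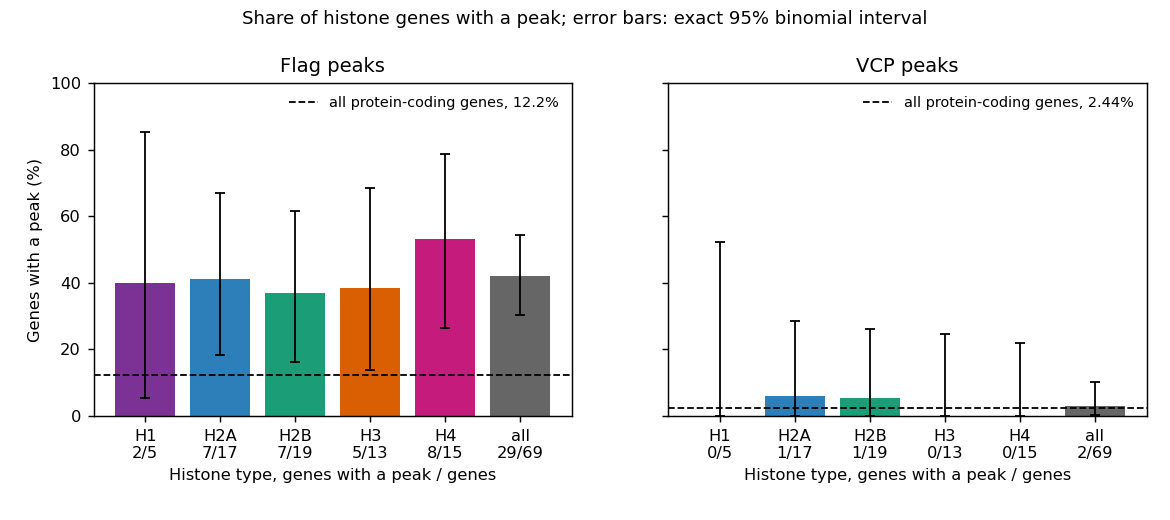
Share of histone genes with a Flag peak (left) or a VCP peak (right) within 1 kb of either end, by histone type and in all. Error bars are exact 95% binomial intervals and the dashed line is the share over all protein-coding genes. All 5 types stood above the Flag background, though the interval of H1 reaches below it. No VCP peak was found at 3 of the 5, where a background of 2.44% would give few.

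Every histone type had members with a Flag peak, though the interval of H1 reaches below the 12.2% of all protein-coding genes. Of the H4 genes, 8 of 15 were marked (53.3%, 26.6 to 78.7), and of the H2A genes 7 of 17 (41.2%, 18.4 to 67.1). For H1 the count was 2 of 5 (40.0%, 5.27 to 85.3), for H3 5 of 13 (38.5%, 13.9 to 68.4) and for H2B 7 of 19 (36.8%, 16.3 to 61.6). The intervals of the 5 types overlapped, so no order among them can be read from these counts. When only peaks with a q of at most 0.05 were kept, 6 H4, 4 H2B, 4 H3, 3 H2A and 2 H1 genes were marked, 19 in all, against 5.76% of all protein-coding genes. At a -log10 q of at least 5, 6 genes were marked, against 0.727%.

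The Flag count stood above its background at other window sizes too. Within 500 bp of an end, 25 members were marked (10.3% of all protein-coding genes), and within 3 kb 34 were (15.1%). With any base of the peak within 1 kb the count was 29 (12.5%), with gene starts alone 26 (13% of genes with a listed start), and with each peak given to its nearest gene only 23 (10.2%). The VCP count moved with these choices. It was 0 within 500 bp (1.95% of all protein-coding genes), 4 within 3 kb (3.17%) and 0 by gene starts alone (2.48% of genes with a listed start). At a q of at most 0.05 it was 1 (0.285%), and at a -log10 q of at least 5 it was 0 (0.00527%).

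The 29 marked genes rested on 27 distinct Flag peaks, of which 25 lay on chromosome 6. Of these peaks, 20 marked 1 member, 6 marked 2 and 1 marked 3. At least 2 protein-coding genes of any kind lay at 8 of the 27 peaks (29.6%), against 398 of the 2012 Flag peaks at protein-coding gene ends (19.8%). Several members had more than 1 peak: H4C4 had 3, and H1-4, H2BC5, H3C4 and H3C12 had 2 each. In all 5 members had at least 2 Flag peaks, against 0.627% of all protein-coding genes.

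**Figure D2:**
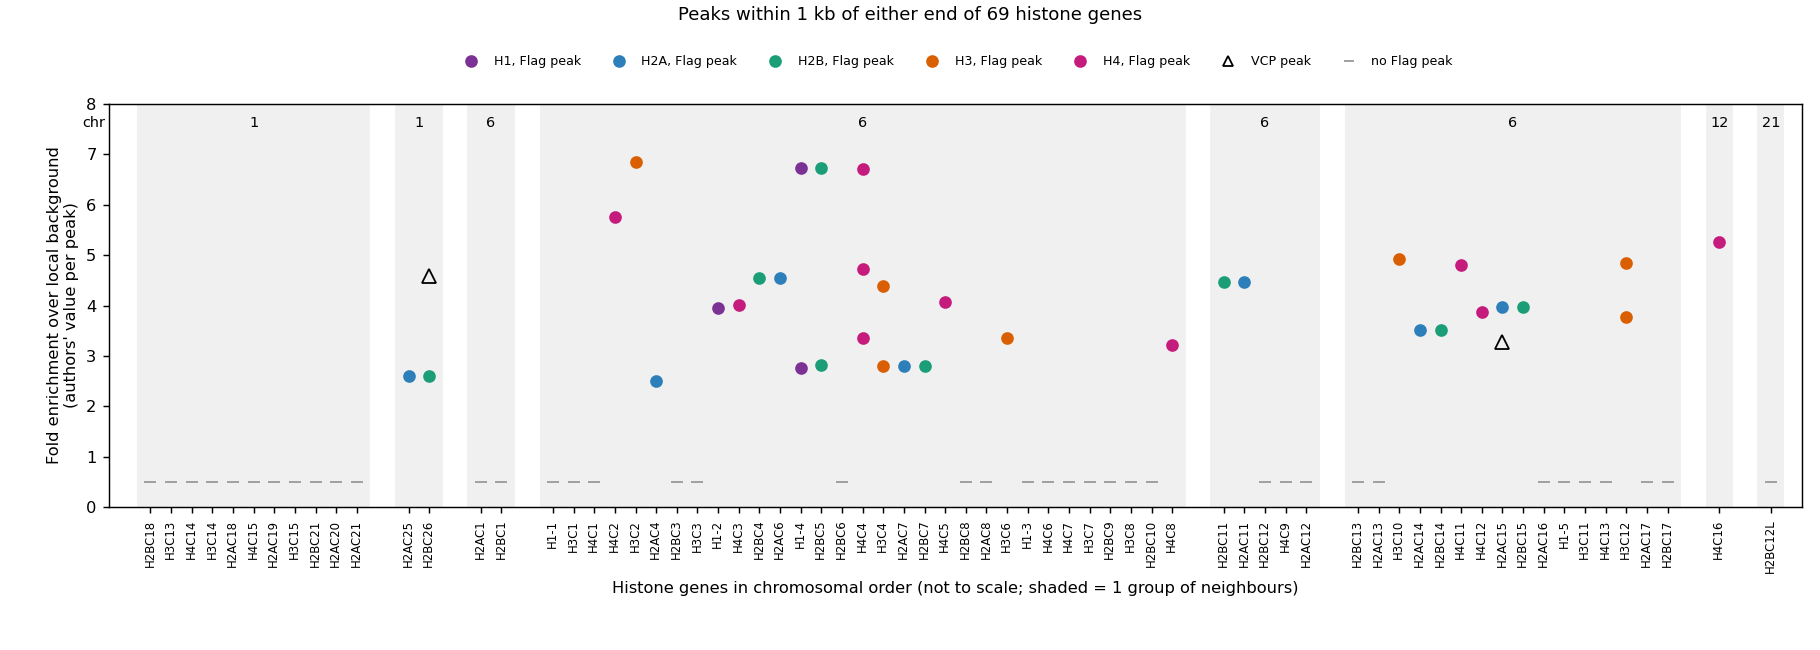
Fold enrichment of each peak at the 69 histone genes, which stand in chromosomal order along the x axis and are shaded by group of neighbours. Filled points are Flag peaks coloured by histone type, open triangles are VCP peaks and grey dashes are genes without a Flag peak. Peaks shared by neighbours appear at each gene, and the 11 genes of the first chromosome 1 group have none.

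Peaks at H4 genes were among the strongest of the group. Ordered by -log10 q, 6 of the top 10 peaks at histone genes lay at H4 genes, and of all 27 peaks 10 did. The values of each peak are the authors' fold enrichment over the local background and -log10 q. Summit reads and their local background were worked out from the authors' fold enrichment and -log10 p.

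Coordinates given are those of the peak. H4C4, which encodes histone H4, led the group by -log10 q. Its peak spanned chr6:26188813-26189244, with a fold enrichment of 6.72, 24 reads (exact Poisson 95% interval 15.4 to 35.7) over a background of 2.72, and -log10 q of 9.60. This placed it at rank 32 of the 5719 Flag peaks. Its summit lay 57 bp before the start, inside the window printed above, where the GGTCCG core begins 44 bases before the start. The 2 other peaks flanked it: 1 had its summit 460 bp before the start (fold enrichment 4.72, 13 reads, -log10 q 2.97), and the other lay 263 bp beyond the end of the gene (3.35, 13 reads, 1.26). No VCP peak lay within 1 kb of H4C4.

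H4C2 (chr6:26027075-26027499) had its summit 7 bp before the start, with a fold enrichment of 5.75 and 23 reads (14.6 to 34.5) over a background of 3.17 (-log10 q 7.46, rank 62). H4C5 (chr6:26204419-26204860) had the most reads of any peak at a histone gene, 27 (17.8 to 39.3), but over a higher background of 5.90, so its fold enrichment was 4.06 (-log10 q 5.14). Its summit lay 50 bp before the start. At H4C11 (chr6:27823798-27823996) the summit lay 143 bp before the start (fold enrichment 4.81, 18 reads, 10.7 to 28.4, -log10 q 4.33). H4C16, a lone H4 gene on chromosome 12 (chr12:14770894-14771422), had its summit 20 bp before the start (fold enrichment 5.27, 14 reads, 7.65 to 23.5, -log10 q 3.90), and that peak also counts for the neighbouring LOC105369669. In H4C3 (chr6:26103805-26104174) the summit lay inside the gene, 67 bp from an end (fold enrichment 4.01, 23 reads, 14.6 to 34.5, -log10 q 4.11). H4C8 had a weaker peak 98 bp before its start (fold enrichment 3.22, 11 reads, q above 0.05). That peak also lay within 1 kb of the tRNA gene TRX-CAT1-2. Among the marked H4 genes with a listed start, only H4C12 had its peak away from the start. Its summit lay 558 bp beyond the end (fold enrichment 3.86, 10 reads, 4.80 to 18.4, q above 0.05).

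The start-proximal sequence of H4 genes held the same core in marked and unmarked members. Shown are 110 bases for each of 9 H4 genes, from 100 bases before the start to 10 bases from it, with the same motifs in capitals. The first 4 had a Flag peak and the last 5 had none, and these 9 were chosen after their values were seen.
H4C2, chr6:26027274-26027383, - strand: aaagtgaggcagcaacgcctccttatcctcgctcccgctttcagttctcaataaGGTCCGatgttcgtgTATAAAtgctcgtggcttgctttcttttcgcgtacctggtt
H4C5, chr6:26204510-26204619, + strand: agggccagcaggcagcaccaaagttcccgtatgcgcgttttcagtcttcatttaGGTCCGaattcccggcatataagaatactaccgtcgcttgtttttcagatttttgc
H4C11, chr6:27823992-27824101, + strand: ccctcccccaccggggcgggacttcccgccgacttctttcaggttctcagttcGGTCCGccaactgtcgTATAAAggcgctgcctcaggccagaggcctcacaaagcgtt
H4C16, chr12:14771122-14771231, - strand: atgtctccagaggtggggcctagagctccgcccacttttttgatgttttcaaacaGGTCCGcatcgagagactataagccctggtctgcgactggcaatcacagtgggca
H4C6, chr6:26240293-26240402, + strand: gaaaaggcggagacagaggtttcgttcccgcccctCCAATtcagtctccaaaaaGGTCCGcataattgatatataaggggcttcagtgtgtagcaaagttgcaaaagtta
H4C9, chr6:27139182-27139291, + strand: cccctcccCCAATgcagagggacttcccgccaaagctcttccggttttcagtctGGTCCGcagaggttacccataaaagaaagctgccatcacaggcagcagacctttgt
H4C13, chr6:27873525-27873634, - strand: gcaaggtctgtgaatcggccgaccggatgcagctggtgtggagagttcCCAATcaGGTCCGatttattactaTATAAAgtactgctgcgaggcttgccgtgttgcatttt
H4C14, chr1:149832557-149832666, + strand: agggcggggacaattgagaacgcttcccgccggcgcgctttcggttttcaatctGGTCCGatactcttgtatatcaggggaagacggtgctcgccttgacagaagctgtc
H4C7, chr6:26246987-26247096, - strand: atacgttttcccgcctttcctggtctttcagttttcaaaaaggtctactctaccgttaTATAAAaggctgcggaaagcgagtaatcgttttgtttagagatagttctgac

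GGTCCG was present in the 300 base windows of 7 of 7 H4 genes with a Flag peak and of 5 of 6 without one, the exception being H4C7. It was found in 14.6% of the windows of all 15101 protein-coding genes with a listed start. In 12 of 13 H4 windows it lay 44 to 47 bases before the start. A CCAAT box was found in 0 of the 7 H4 windows with a Flag peak and in 3 of the 6 without one, H4C6, H4C9 and H4C13. These are letter matches in a small set of windows, and no binding of a factor was measured.

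Among H3 genes, H3C2 had the highest fold enrichment of any peak at a histone gene. Its peak spanned chr6:26031590-26032122, with a fold enrichment of 6.84, 21 reads (13.0 to 32.1) over a background of 2.22, and -log10 q of 8.62, rank 41 of the list. The summit lay 129 bp after the start, inside the gene and past the end of the window printed above. H3C10 had its summit 109 bp after the start (fold enrichment 4.92, 13 reads, 6.92 to 22.2, -log10 q 3.18). The record of H3C4 is 2510 bp long and reaches across H2AC7. In H3C4 the stronger of 2 summits lay 103 bp after a listed start (fold enrichment 4.38, 12 reads, -log10 q 2.30). In H3C6 the summit lay 132 bp after a listed start (3.35, 13 reads, q above 0.05). H3C12 had 2 peaks, 1 inside the gene (fold enrichment 3.76, 13 reads, -log10 q 1.73) and 1 lying 306 bp outside it (chr6:27891005-27891211, fold enrichment 4.85, 15 reads, 8.40 to 24.7, -log10 q 3.64).

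Summits thus sat on different sides of the start at most marked H3 and H4 genes with a listed start. Taking for each gene the peak with the highest -log10 q within 1 kb of a listed start, all 4 H3 genes with one had it 103 to 132 bp after the start. Of 7 such H4 genes, 6 had it 7 to 143 bp before the start, and the exception was H4C12, at 944 bp after it. Among these genes the 2 types did not overlap apart from H4C12, which lay farther after the start than the H3 genes. The marked H4C3 and H3C12 have no listed start and were left out, and neither followed the pattern. The H4C3 summit lay inside the gene, so after the start on either strand. The stronger H3C12 summit lay 306 bp outside the gene, so not 103 to 132 bp after the start on either strand. H2A genes had 3 of 7 summits before the start and H2B genes 5 of 7, with medians of 74 bp after and 320 bp before it. Over all types, 14 of 28 gene and summit pairs lay within 250 bp of the start, with summits shared by neighbours counted at each gene, against 68.5% of the 1820 such pairs of all protein-coding genes. The side was not chosen by the rule for members, but it was noted after the values were seen and is not tested.

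**Figure D3:**
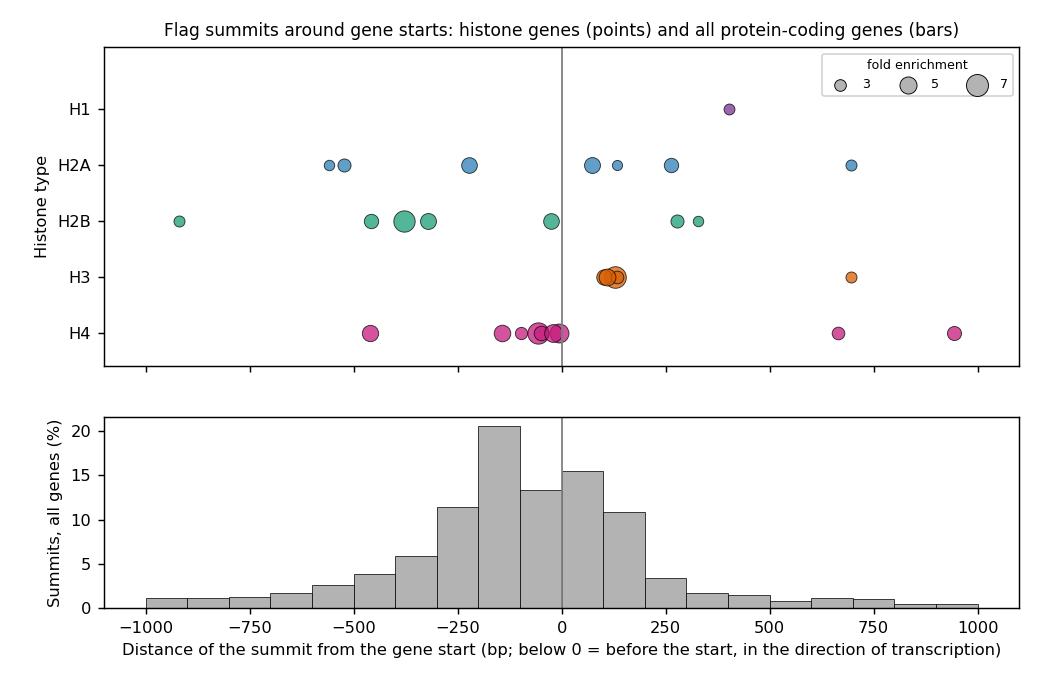
Distance of Flag summits from the nearest listed gene start, in bp, with values below 0 lying before the start. Points are peaks at histone genes by type, sized by fold enrichment, and bars are the shares of summits around starts of all protein-coding genes. Of the summits within 250 bp, those of H3 genes lie 103 to 132 bp after the start and those of H4 genes 7 to 143 bp before it.

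H2A and H2B genes often stand head to head around a short common start region. With starts from the promoter table, 11 such neighbouring pairs were found, with 193 to 247 bp between the starts (median 235 bp). A Flag peak within 1 kb of both genes was listed at 6 pairs, and 5 pairs had none at either gene. Around so close a pair of starts the 1 kb windows of both genes overlap, so most summits there count for both. At only 1 pair, H2BC11 and H2AC11, did the summit lie between the starts, 25 bp before that of H2BC11 (fold enrichment 4.46, 17 reads, 9.90 to 27.2, -log10 q 3.54).

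At the other 5 pairs the summit lay to 1 side. In H2AC6, paired with H2BC4 (chr6:26124168-26124399), it lay 74 bp after the start (fold enrichment 4.55, 17 reads, 9.90 to 27.2, -log10 q 3.68), just past the window printed above. At H2AC15 and H2BC15 it lay inside H2AC15, 264 bp after its start (fold enrichment 3.98, 12 reads, -log10 q 1.83). At H2AC14 and H2BC14 it lay inside H2BC14, 278 bp after its start (3.51, 9 reads, q above 0.05). The peak of H2AC25 and H2BC26 (fold enrichment 2.60, 11 reads) and that of H2AC7 and H2BC7 (2.80, 8 reads) were weak, also with q above 0.05. The peak of H2AC7 and H2BC7 is the one that marked 3 members, since it also lay in H3C4. H2AC4, an H2A gene that is in none of these pairs, had a summit 132 bp after its start (fold enrichment 2.50, 14 reads over a background of 4.99, q above 0.05).

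A peak between H1-4, a linker histone gene, and H2BC5 ranked next to H3C2 by -log10 q. It spanned chr6:26157383-26157904, with a fold enrichment of 6.73, 21 reads (13.0 to 32.1) over a background of 2.27, and -log10 q of 8.43. Its summit lay 627 bp beyond the end of H1-4 and 379 bp before the start of H2BC5, so it was nearer to the start of the H2B gene. Inside H1-4 another, weak peak lay 403 bp after the start (fold enrichment 2.75, 13 reads, q above 0.05). H2BC5 had another 763 bp beyond the far end of its 13229 bp record (fold enrichment 2.81, q above 0.05). It had 7 reads, the fewest of any Flag or VCP peak at a histone gene. H1-2 had a peak 443 bp beyond its end (fold enrichment 3.94, 12 reads, -log10 q 1.79). H1-1, H1-3 and H1-5 had none, so no Flag summit lay within 250 bp of the start of an H1 gene.

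Flag peaks at histone genes had higher medians than those at all gene ends, with wide overlap. The median fold enrichment of the 27 peaks was 4.01 (quartiles 3.35 and 4.83), against 3.67 (3.16 and 4.21) for the 2012 Flag peaks at protein-coding gene ends, which include them. Reads at the summit had medians of 13 and 12. Of the 27, 17 had a q of at most 0.05 (63.0%, 42.4 to 80.6), against 45.2% of the 2012 (43.0 to 47.4), with overlapping intervals. A -log10 q of at least 5 was reached by 5 of the 27 (18.5%, 6.30 to 38.1), against 5.32% of the 2012 (4.38 to 6.39).

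**Figure D4:**
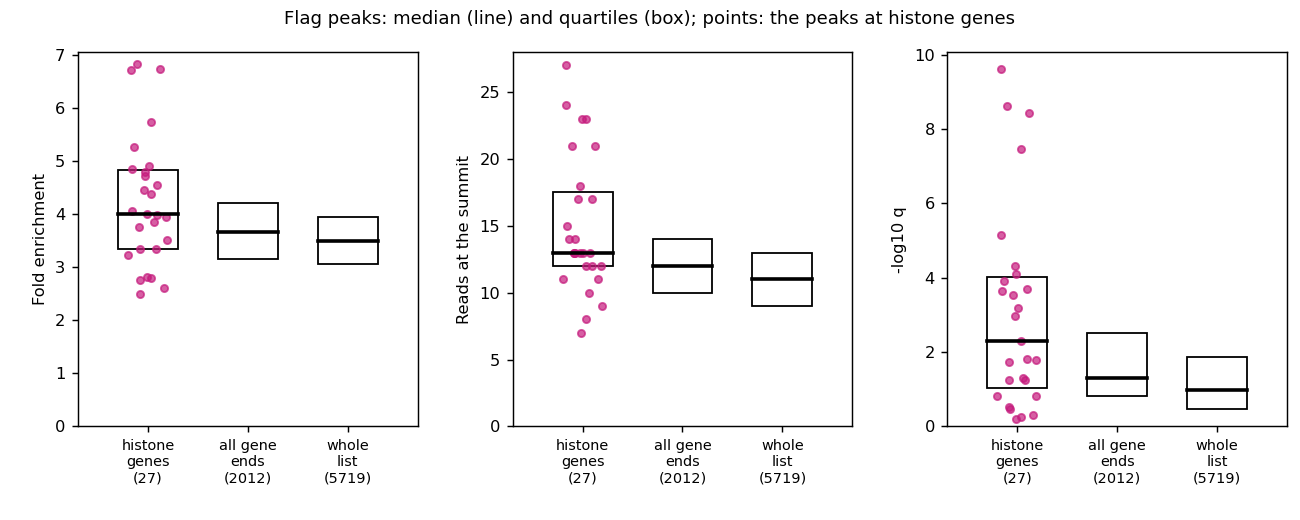
Fold enrichment, reads at the summit and -log10 q of Flag peaks, with medians (lines) and quartiles (boxes) for the 27 peaks at histone genes, the 2012 at protein-coding gene ends and the 5719 of the whole list. Points are the peaks at histone genes, whose median fold enrichment of 4.01 stood above 3.67 and 3.49.

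Neither of the 2 VCP peaks at histone genes coincided with a Flag peak at one. The first lay 750 bp beyond the end of H2BC26 on chromosome 1 (chr1:228459186-228459370, fold enrichment 4.60, 15 reads, 8.40 to 24.7, -log10 q 2.23) and ranked 39 among the 1816 VCP peaks. The Flag summit inside H2BC26 was 877 bp away from it. The other lay 691 bp beyond the end of H2AC15 on chromosome 6 (chr6:27837171-27837373, fold enrichment 3.28, 8 reads, 3.45 to 15.8, q above 0.05). It overlapped a Flag peak (fold enrichment 3.51, 9 reads, q above 0.05) whose summit fell just outside the 1 kb window of H2AC15. Of the 27 Flag peaks at histone genes, 0 overlapped a VCP peak (exact 95% upper limit 12.8%), against 6.26% of the 2012 Flag peaks at protein-coding gene ends. So few peaks cannot separate that limit from the share at other gene ends. The largest group of histone genes, with 31 members, had 0 VCP peaks and 21 Flag peaks across its 269 kb with 1 kb added on either side. Over chromosome 6 the VCP list held only 0.0504 peaks per 100 kb, so a span of this size without a VCP peak is near that background.

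Within chromosome 6, marked and unmarked genes alternated in stretches. Members were put in 1 group where neighbours lay at most 200 kb apart, which gave 4 groups on chromosome 6. There, 26 of the 54 members were marked (48.1%, 34.3 to 62.2). The pair H2AC1 and H2BC1, known as testis histone genes, had no peak. In the group of 31 from H1-1 to H4C8, 16 were marked, and the 17 peaks at them made up most of the 21 Flag peaks in its span with 1 kb added on either side. The 21 peaks made 7.76 per 100 kb, against 0.212 over the chromosome. The 4 others had no summit within 1 kb of a member's end. Of these, 1 lay inside the 10757 bp record of H2BC4 (fold enrichment 2.75, 8 reads, q above 0.05) and 1 in the pseudogene H1-12P (4.57, 12 reads). Between H1-3 and H2BC10, 7 members in a row (39.2 kb) had no Flag peak. Of the 5 members from H2BC11 to H2AC12, only the first pair was marked, and of the 16 from H2BC13 to H2BC17, 8 were. The 2 other protein-coding genes within the first of these spans, the iron regulator gene HFE and the testis linker histone gene H1-6, had no Flag peak.

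On chromosome 1 few members were marked, 2 of 13 (15.4%, 1.92 to 45.4). The group of 11 members from H2BC18 to H2AC21 had 0 Flag peaks and 0 VCP peaks over its 105 kb. Chromosome 1 as a whole held 0.196 Flag and 0.0587 VCP peaks per 100 kb, so most spans of this size hold no peak. The upper limit of the exact 95% interval for a share of 0 of 11 is 28.5%, below the 48.1% of chromosome 6 but above the 12.2% of all genes. The nearest Flag summits lay 1380 kb before and 599 kb after this group. Reads from identical copies cannot be placed by sequence alone, and how such reads were aligned is not stated in the labels or files. The promoter windows of H4C14 and H4C15, of H3C14 and H3C15 and of H2AC18 and H2AC19 were identical over the 296 to 300 bases compared. The other 5 members of the group had no window at least 95% identical to another member's. They had no peak, and the exact 95% upper limit for a share of 0 of 5 is 52.2%, above the 48.1% of chromosome 6. Identity was compared over the promoter windows only. On chromosome 6, H4C11 and H4C12 had windows that differed at 5 of 300 positions, and both were marked. Only the H4C11 summit lay in the compared window, 143 bp before the start. That of H4C12 lay outside it, 558 bp beyond the end of the gene. The part of sequence identity in the empty group was not tested. Elsewhere on chromosome 1, H2AC25 and H2BC26 shared the weak Flag peak given above, and H2BC12L on chromosome 21 had none.

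In all 40 members had no Flag peak, of which 16 had a Flag summit within 10 kb of an end. The distance to the nearest Flag summit had a median of 17541 bp. Just outside the window were H2AC13 (1493 bp) and H2AC17 (1567 bp), while the member just inside it was H2BC7 (919 bp). For VCP, H2BC15 (1380 bp) and H2AC25 (1435 bp) lay just outside. The 40 included 12 H2B, 10 H2A, 8 H3, 7 H4 and 3 H1 genes. Of 13 histone pseudogenes of the same symbol families, 1 had a Flag peak (7.69%, 0.195 to 36.0), H3C9P (fold enrichment 2.92, 12 reads, q above 0.05). That interval holds the 12.2% of all protein-coding genes and overlaps the interval of the histone genes (30.2 to 54.5). A VCP peak was found at 0 of the 13, against 2.44% of all protein-coding genes.

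Promoter windows of marked and unmarked members were compared by GC content and motifs, as a description without a test. The median GC content was 43.3% for the 27 marked members with a window and 42.7% for the 36 unmarked ones. Both medians were lower than the 63.0% of all 15101 protein-coding genes with one and the 65.0% of the 1941 such genes with a Flag peak. TATAAA was found in 17 of the 27 marked (63.0%) and 25 of the 36 unmarked members (69.4%), against 9.71% of all genes and 6.29% of genes with a Flag peak. The octamer ATGCAAAT was found in 10 (37.0%) and 16 (44.4%), and CCAAT in 20 (74.1%) and 33 (91.7%), against 1.69% and 36.0% of all genes. All H1, H2A, H2B and H3 windows held CCAAT, marked or not. The gap in CCAAT thus came from H4 windows alone, 0 of 7 marked and 3 of 6 unmarked. AAACACA was found in 2 marked (7.41%) and 6 unmarked members (16.7%), among them all 5 H1 genes, and in 4.25% of all windows. Both strands were searched, and matches to different motifs overlapped in 3 of the 63 windows. These shares describe letters only.

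Other genes of histone supply were counted in the same way. Of 47 genes for the transcription of histone genes, the processing of their messages and the handling of the proteins, 10 had a Flag peak (21.3%, 10.7 to 35.7) and 2 a VCP peak (4.26%, 0.520 to 14.5), against the 12.2% and 2.44% of all protein-coding genes. The interval of the Flag share holds the share of all protein-coding genes and also overlaps the interval of the histone genes, and neither difference was tested.

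Of the 10 genes for transcription, 1 was marked: NPAT, the organiser of the histone locus body, with a weak Flag peak (fold enrichment 3.16, 8 reads, 3.45 to 15.8, q above 0.05). Its summit lay 547 bp from an end of NPAT, and other genes near this peak are not listed here. Of the 19 for message processing and turnover, 5 were. SNRPE, a subunit shared by many small ribonucleoproteins, had the strongest (fold enrichment 5.91, 21 reads, 13.0 to 32.1, -log10 q 7.06). SLBP, which binds the stem-loop of histone messages, had a fold enrichment of 4.21 on 11 reads (-log10 q 1.87). LSM10, a subunit of the U7 particle that directs cleavage, had 2.81 on 7 reads (q above 0.05). DXO, a decapping enzyme, had 4.69 on 16 reads in the Flag list (-log10 q 3.65) and 3.25 on 12 reads in the VCP list. TUT7, a uridyl transferase, had 3.24 on 14 reads in the Flag list (q above 0.05) and 2.80 on 9 reads in the VCP list. DXO and TUT7 were the 2 support genes with a VCP peak, and each VCP peak had a q above 0.05.

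Of the 18 histone chaperone and import genes 4 were marked in the Flag list. NASP, a chaperone of H3 and H4, had a fold enrichment of 4.85 on 13 reads (-log10 q 3.14), and CABIN1, of the HIRA chaperone complex, had 4.59 on 14 reads (-log10 q 3.03). SUPT16H, a subunit of the FACT chaperone, had 3.61 on 19 reads (-log10 q 2.55), and TONSL, which reads new H4 at replication forks, had 2.79 on 16 reads (q above 0.05). Genes for histone variants made outside S phase with a Flag peak included H1-10 (fold enrichment 3.86, 10 reads, q above 0.05). CENPA, the gene for the centromeric H3 variant, was another (3.51, 9 reads, q above 0.05). H3-3A, an H3.3 gene, had a VCP peak at the very edge of the window, 1000 bp from its end (3.65, 9 reads, q above 0.05).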

How the data were processed

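The deposited peak lists of the Flag and VCP libraries were used, called per library on hg38. MACS2 2.1.0, Bowtie 1.1.2, Trimmomatic 0.33 and bcl2fastq 2.17 are named, per the submitters' processing notes; the options used with them, the input's role among them, are not given there. Each deposited peak has a fold enrichment, a ratio of summit reads to local background, and -log10 p and -log10 q values by the authors' peak caller. The deposited score is 10 times -log10 p, rounded down, and it and the summit position are the authors' too. The score was not used. The Flag list held 5719 peaks and the VCP list 1816, with -log10 p of at least 3.00 in each. Of these, 1932 (33.8%) and 118 (6.50%) had a q of at most 0.05.

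The whole number of reads at each summit was sought whose Poisson tail, with a pseudocount of 1 read, matched the -log10 p given by the authors. A match within 0.001 was found for every peak. The median was 11 reads in the Flag list and 10 in the VCP list, which sets the precision. Intervals are exact at 95%.

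Gene ends came from the RefSeq table of GRCh38.p14. Rows of other scaffolds were left out, which kept 58961 of 59792. Strand and starts came from the RefSeq promoter table, which listed 15101 of the 18973 genes. Analyses used Python 3.11.15 with pandas 2.3.3 and scipy 1.17.1, and window counting and read recovery were tested on simulated data. The members, gene lists, motifs and rule for named genes were chosen with earlier results of these data known. All members with a peak are named, with full values for those at VCP peaks and at the top 10 Flag peaks by -log10 q. The count over the histone variant genes is not reported here.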

Additional observations from a re-analysis of the deposited data

How the results depend on the processing

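The count of 29 histone genes with a Flag peak was 25 with a 500 bp window, 34 with a 3 kb window, 29 with any base of the peak in the window, 26 by gene starts alone and 23 with each peak counted for the nearest gene only. Over all protein-coding genes these settings gave 10.3%, 15.1%, 12.5%, 13% and 10.2%. Leaving out the 8 members with a near-identical promoter window, a setting chosen after seeing the data, left 27. Stricter thresholds moved it: q of at most 0.05 left 19 genes on 17 peaks, and -log10 q of at least 5 left 6 genes on 5 peaks, against 5.76% and 0.727% of all genes. These settings remove peaks by construction. The count of 2 histone genes with a VCP peak was 1 at a q of at most 0.05, 0 at -log10 q of at least 5, 0 with the 500 bp window, 0 by gene starts alone and 4 with the 3 kb window, so it rests on 2 peaks, both beyond gene ends, of which 1 has a q above 0.05. The 27 distinct Flag peaks were 25 to 33 over the 500 bp and 3 kb windows. Their median fold enrichment of 4.01 ranged over 3.94 to 4.72 in the 3 settings tried. The 10 support genes with a Flag peak were 6 at a q of at most 0.05, and the cause was not tested beyond the smaller number of peaks. No Flag peak at a histone gene overlapped a VCP peak by 1 bp or more. A rule of larger overlap is stricter, so it had to give 0 too. The rule of summits within 500 bp also gave 0, since the nearest VCP summit lay 877 bp away. The overlap was not counted with the 3 kb window, which takes in the Flag peak near H2AC15 that did overlap a VCP peak. No paired analysis was possible because each antibody has 1 library. Peaks rest on 7 to 27 reads at histone genes, and a gene without a listed peak is one at which none was called, which does not show that it lacks binding.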
